A study of Mus musculus with 2 samples.

Results

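Rab proteins are small GTPases that direct membrane traffic. Of 23652 genes listed in pancreatic islet transcriptomes, 59 were Rab GTPase genes. They were chosen by gene symbol alone: 61 symbols had the form Rab plus a number and up to 3 further characters, and the 2 that do not encode Rab GTPases, Rab3ip and Rab5if, were set aside. The series compared islets of mice aged 7 months from 2 genotypes by RNA sequencing. The first, SRSF2 flox/flox Ins2-Cre, carries floxed Srsf2 alleles together with a Cre recombinase driven by the insulin 2 promoter, which is active in beta cells. The second, SRSF2 flox/flox, carries the same floxed alleles without Cre. They are called the Ins2-Cre and the flox/flox library here. Each genotype had 1 library, so every value describes these 2 libraries and not the genotypes, with no check by replicates. Cre itself is not controlled for, islet cells other than beta cells keep Srsf2, and the sources used here do not give the number of mice or their sex.

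A Rab protein carries a lipid tail and cycles between a GTP-bound form, which sits on a membrane and recruits effector proteins, and a GDP-bound form, which a carrier protein takes back to the cytosol. Exchange factors load GTP, and GTPase-activating proteins end the active state. Each membrane compartment has its own Rab proteins. In beta cells Rab27a and the Rab3 proteins act on insulin granules before exocytosis, Rab5, Rab7 and Rab11 mark early, late and recycling endosomes, and Rab1, Rab2 and Rab6 serve transport through the endoplasmic reticulum and the Golgi, where proinsulin is handled.

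The libraries held 15098659 (Ins2-Cre) and 17412828 (flox/flox) reads on listed genes. Srsf2, the targeted gene, stood at 22.6 FPKM (reads per kilobase of gene, scaled to the library total) in the Ins2-Cre library and 37.2 FPKM in the flox/flox library. Differences are given as log2(FPKM + 0.5) in Ins2-Cre minus flox/flox for genes whose mean FPKM was 1 or more, of which there were 10666, here called measured. The scale understates differences of low genes. The median difference of the measured genes was -0.36, and differences after subtraction of this median are called relative. Srsf2 had a difference of -0.71, or -0.34 relative to all genes. Ratios are Ins2-Cre over flox/flox FPKM, and the median ratio of measured genes was 0.757. Each ratio is followed by its 95% counting interval, exact binomial, which covers counting error only and leaves out all variation between mice. With no test to be had, genes are counted by size, at 2-fold or 1 log2 unit. Marker genes of acinar cells, which surround islets, took 15.2% of reads in the Ins2-Cre library and 1.70% in the flox/flox library. Of the 23 measured genes of that list, 22 were at least 2-fold higher (1.57% of all measured genes). In whole islets, fewer cells of a type and less RNA per cell cannot be told apart, and the part of cell makeup in the Rab values was not tested.

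Most Rab genes were well expressed, and of those measured only Rab31 differed by 2-fold or more as deposited. Of the 59 genes, 46 were measured, 12 had reads but stayed under the minimum, and 1, Rab44, had no read. The mean level of the 46 ran from 1.43 to 110 FPKM with a median of 21.1 FPKM, against a median of 7.22 FPKM over all measured genes. Only Rab31 was at least 2-fold lower as deposited, 1 of 46 (2.17%), where 6.32% of all measured genes were. None of the 46 (0) was higher by 2-fold or more, a size that 1.57% of all genes reached. Relative to the median of all genes, 1 Rab gene was at least 2-fold lower, again Rab31 (1.36% of all genes), and 1 was at least 2-fold higher, Rab26 (3.22% of all genes). With a size of 1.5-fold as deposited, 6 Rab genes were lower (29.6% of all genes), namely Rab31, Rab36, Rab43, Rab22a, Rab3d and Rab27a. By the same size 2 were higher, Rab26 and Rab29 (3.69% of all genes).

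**Figure D1:**
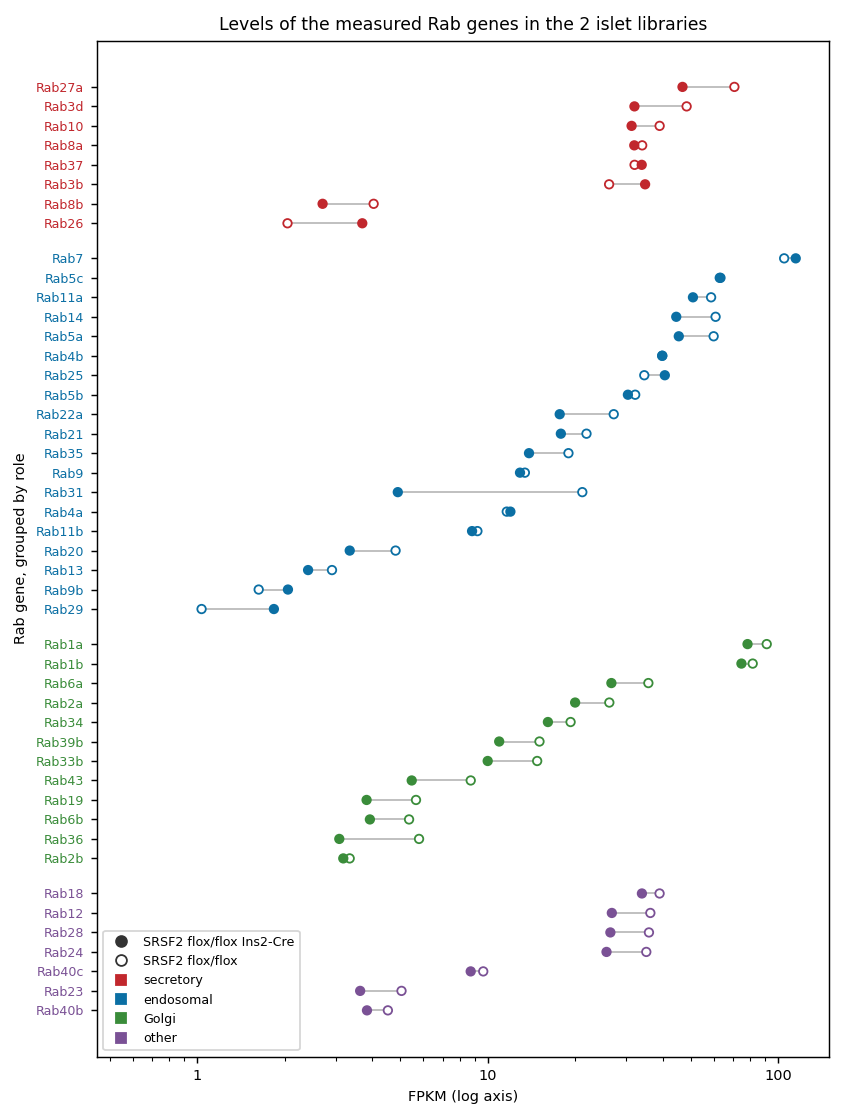
FPKM on a log axis of the 46 measured Rab genes, grouped by role and ordered by mean level, with filled points for SRSF2 flox/flox Ins2-Cre and open points for SRSF2 flox/flox (1 library each, no error bars). Rab7 is the highest in both libraries, and the line joining the 2 points is longest for Rab31, at 4.90 FPKM in Ins2-Cre and 21.1 FPKM in flox/flox.

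The median difference of the 46 Rab genes was -0.27, or 0.09 relative to all genes, and the quartiles of the relative differences were -0.08 and 0.30 (all measured genes: -0.28 and 0.31). The sign of the unadjusted median depends on the scaling: it was 0.11 with median ratio scaling and 0.09 with the authors' normalised counts. The relative median was -0.016 with no minimum on the level and 0.0045 with the length trend removed, so its sign is not settled either. FPKM was lower in the Ins2-Cre library for 38 of the 46, as it was for 8419 of all 10666 measured genes, so this count is near the background. The counting interval lay wholly above the median ratio of all genes, 0.757, for 19 Rab genes, wholly below it for 7 and across it for 20. Over all measured genes these shares were 32.7%, 33.5% and 33.8%. Summed over all 59 genes, FPKM came to 1134 in the Ins2-Cre library and 1329 in the flox/flox library. Their reads made up 0.345% of the Ins2-Cre library (exact binomial 95% interval 0.343% to 0.348%) and 0.417% of the flox/flox library (0.414% to 0.420%).

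**Figure D2:**
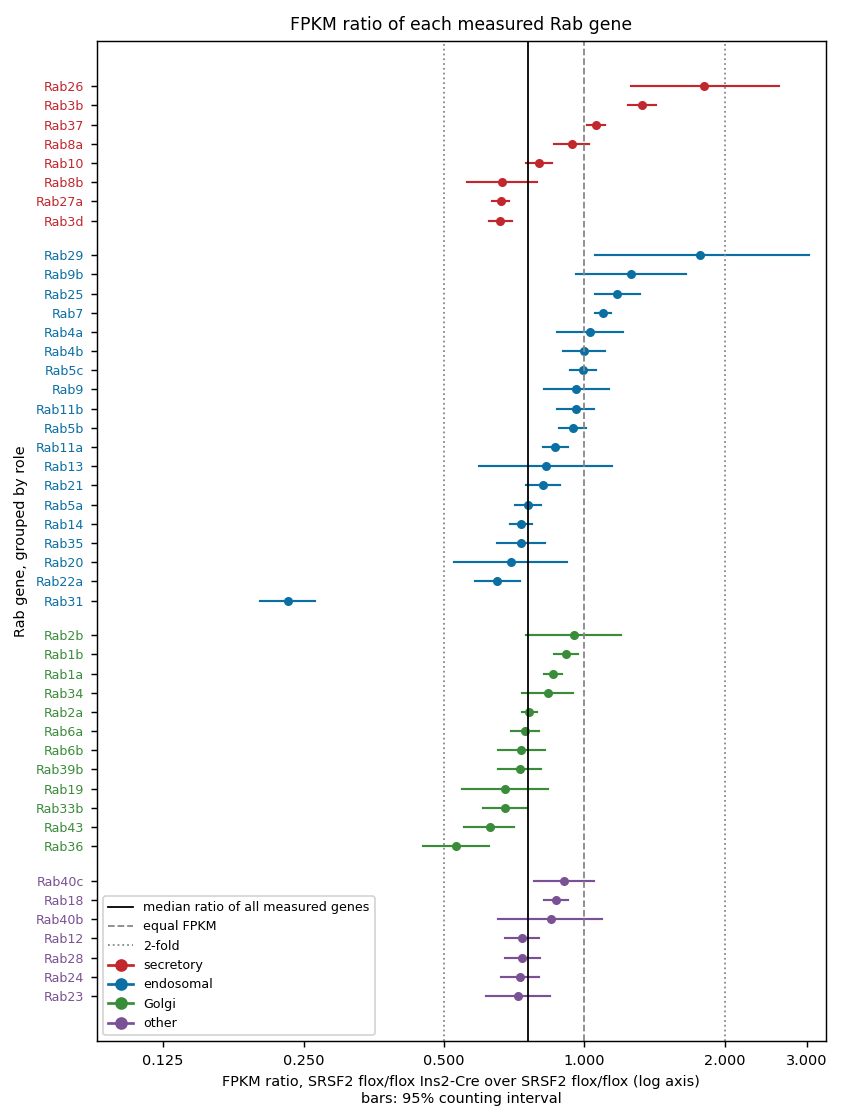
FPKM ratio of each measured Rab gene on a log axis, Ins2-Cre over flox/flox, with bars for the 95% counting interval; the solid line is the median ratio of all measured genes (0.757), the dashed line equal FPKM and the dotted lines 2-fold. Rab31, at 0.232, lies left of the 2-fold line with its whole interval, and every other point lies between the 2-fold lines.

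Rab31, also called Rab22b, acts between the trans-Golgi network and early endosomes, and had the lowest ratio of the family by a wide margin. It had 257 reads and 4.90 FPKM in the Ins2-Cre library, against 1280 reads and 21.1 FPKM in the flox/flox library. The ratio was 0.232 (0.202 to 0.265). Its difference was -2.00, or -1.64 relative to all genes, and 17th lowest among the 10666 measured genes. The next Rab gene, Rab36, had a difference of -0.81. Under the 9 alternative settings of pseudocount, scaling, minimum and length described in the closing part, the difference of Rab31 stayed between -2.09 and -1.64. Its position in GRCm38 is chr17:65651726-65772752, minus strand, and GENCODE gives it 7 exons.

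Its closest relative in the family is Rab22a, an early endosome Rab, whose coding sequence was 68.1% identical to that of Rab31 in a global alignment. The identity of Rab31 to the 3 Rab5 genes was 54.2% to 56.5%. Rab22a had 513 reads and 17.7 FPKM in the Ins2-Cre library, against 908 reads and 27.1 FPKM in the flox/flox library (ratio 0.652, 0.584 to 0.727). Its relative difference was -0.24. Rab31 thus made up 21.7% of the summed FPKM of the pair in the Ins2-Cre library and 43.8% in the flox/flox library.

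The first 120 coding bases of both genes, which encode the start of the GTP-binding fold, are shown to let the gene with the largest difference be read against its closest relative. Capitals mark CCNG and GGNG, the exonic letters that Srsf2 is known to bind, searched on the sense strand only, with overlapping matches joined. The sequences come from GENCODE transcripts on GRCm38, and each span crosses introns.
Rab31 (chr17:65717563-65772544, minus strand): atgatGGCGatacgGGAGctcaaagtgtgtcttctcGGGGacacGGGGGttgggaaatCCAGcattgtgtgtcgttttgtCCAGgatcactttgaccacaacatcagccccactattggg
Rab22a (chr2:173660106-173688150, plus strand): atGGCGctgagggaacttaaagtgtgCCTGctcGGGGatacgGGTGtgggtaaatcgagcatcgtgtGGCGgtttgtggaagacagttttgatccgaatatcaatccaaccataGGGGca
The window held 7 matches in Rab31 and 6 in Rab22a. Among the first 120 coding bases of 21478 genes, 98.4% held at least 1 match, 40.9% at least 7 and 51.4% at least 6. Over the whole coding sequence, Rab31 had 4.79 matches per 100 bases and Rab22a 2.58. The 59 Rab genes had a median of 4.11, from 1.54 to 6.47, and all genes with at least 300 coding bases had a median of 4.11. The letters are short and common, and a match is not a binding site.

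**Figure D3:**
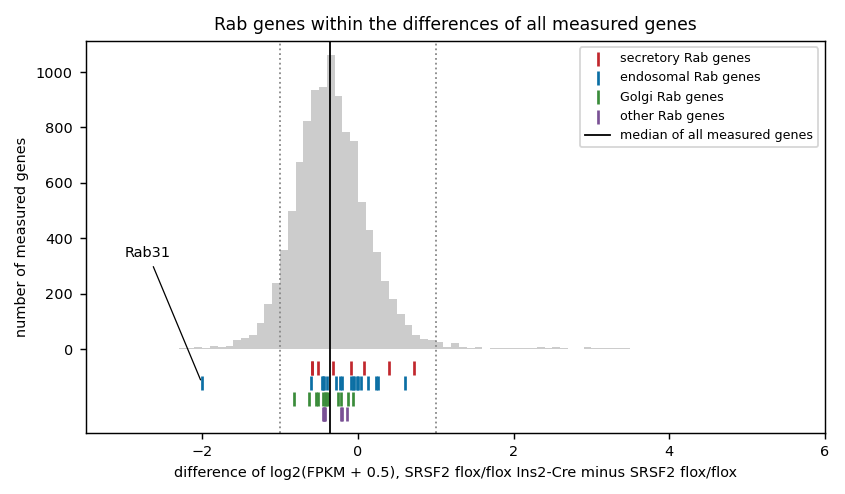
Histogram of the difference of log2(FPKM + 0.5), Ins2-Cre minus flox/flox, over the 10666 measured genes, with a tick for each measured Rab gene under it, coloured by role. The solid line is the median of all measured genes (-0.36) and the dotted lines are 2-fold; the tick of Rab31 stands alone at -2.00.

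Among secretory Rab genes, Rab27a and Rab3d were lower while Rab3b and Rab26 were higher, so the group had no common direction. Of 11 genes 8 were measured, with a median difference of -0.20 (0.16 relative to all genes) and a relative range of -0.23 to 1.09. The relative median was -0.020 with no minimum on the level and 0.077 with the length trend removed. Their summed FPKM was 218 in the Ins2-Cre library and 258 in the flox/flox library, or 19.2% of all Rab FPKM in Ins2-Cre and 19.4% in flox/flox.

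Rab27a, which docks insulin granules at the plasma membrane with its effector granuphilin, was the most abundant of them. It had 3504 reads and 46.8 FPKM in the Ins2-Cre library, against 6098 reads and 70.6 FPKM in the flox/flox library. The ratio was 0.663 (0.636 to 0.691) and the relative difference -0.23. In the order of Rab levels it stood 6th in the Ins2-Cre library and 4th in the flox/flox library. Its paralog Rab27b had 34 reads in the Ins2-Cre library and 41 in the flox/flox library, under 1% of the pair's FPKM in each library.

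The Rab3 genes, whose proteins sit on granules and synaptic vesicles, stood in opposite order in the 2 libraries. Rab3d, also known from zymogen granules of acinar cells, had 32.0 FPKM in the Ins2-Cre library and 48.4 FPKM in the flox/flox library, on 1983 Ins2-Cre and 3459 flox/flox reads (ratio 0.661, 0.625 to 0.699). Rab3b had 34.8 FPKM in the Ins2-Cre library and 26.2 FPKM in the flox/flox library, on 1744 Ins2-Cre and 1512 flox/flox reads (ratio 1.33, 1.24 to 1.43). Rab3d made up 47.4% of the summed Rab3 FPKM in the Ins2-Cre library and 63.8% in the flox/flox library, and Rab3b 51.6% in Ins2-Cre and 34.5% in flox/flox. Rab3a had 3 reads in the Ins2-Cre library and 7 in the flox/flox library, and Rab3c 80 reads in Ins2-Cre and 171 in flox/flox, so both were minor here. The summed FPKM of acinar markers was 138697 in the Ins2-Cre library and 15500 in the flox/flox library. The part of the acinar reads in the Rab3d value was not tested.

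Rab26, a granule Rab of secretory cells including the acinar cell, was low but had the highest difference of the family. It had 80 reads and 3.69 FPKM in the Ins2-Cre library, against 51 reads and 2.04 FPKM in the flox/flox library. The ratio was 1.81 (1.26 to 2.62), and its difference was 0.72, or 1.09 relative to all genes. That relative value was under 1 with a pseudocount of 1 FPKM, with no minimum and with the length trend removed. The part of the acinar reads in this value was not tested.

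Of the remaining secretory Rab genes, Rab37 and Rab8a lay above the median ratio of all genes with their whole intervals. Rab37, found on secretory granules, had 33.9 FPKM in the Ins2-Cre library and 32.0 FPKM in the flox/flox library, a relative difference of 0.44. Rab8a, which carries vesicles from the Golgi to the plasma membrane, had 31.9 FPKM in Ins2-Cre and 34.0 FPKM in flox/flox. Rab10, known from the insertion of glucose transporters in fat cells, had 31.3 FPKM in Ins2-Cre and 39.0 FPKM in flox/flox. Rab8b was lower in level, with 2.70 FPKM in the Ins2-Cre library and 4.04 FPKM in the flox/flox library.

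Endosomal Rab genes were the largest group, and most of them lay above the median of all genes, with Rab31 and Rab22a farthest below it. Of 24 genes 19 were measured, with a median difference of -0.08, or 0.28 relative to all genes, and 13 of the 19 lay above that median. The relative median was 0.02 once the length trend of all genes was removed. These genes had a median length of 2246 bases, against 3513 bases over all measured genes, and the part of length was not tested. The group made up 46.7% of Rab FPKM in the Ins2-Cre library and 44.5% in the flox/flox library.

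Rab7, which drives the fusion of late endosomes with lysosomes, had the highest FPKM of the Rab genes in both libraries. It had 4547 reads and 115 FPKM in the Ins2-Cre library, against 4784 reads and 105 FPKM in the flox/flox library. The ratio was 1.10 (1.05 to 1.14) and the relative difference 0.49. By reads Rab2a stood above Rab7 in the flox/flox library, with 6860 reads, and close to it in the Ins2-Cre library, with 4536. The order by FPKM rests on the listed lengths, 2622 bases for Rab7 and 15038 for Rab2a, whose GENCODE transcript has 2133. Rab9 and Rab9b, which serve return traffic from late endosomes to the Golgi, had ratios of 0.962 (0.820 to 1.13) and 1.26 (0.962 to 1.65), the second on 117 Ins2-Cre and 107 flox/flox reads.

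The 3 Rab5 genes, which act in the fusion of early endosomes, were all strongly expressed. Rab5c had 62.9 FPKM in the Ins2-Cre library and 63.2 FPKM in the flox/flox library (ratio 0.994, 0.934 to 1.06). Rab5a had 45.4 FPKM in Ins2-Cre and 59.9 FPKM in flox/flox (ratio 0.759, 0.712 to 0.808), and Rab5b 30.4 FPKM in Ins2-Cre and 32.2 FPKM in flox/flox (ratio 0.944, 0.882 to 1.01). Rab5a was lower relative to its 2 paralogs: its interval did not reach theirs, and its share of Rab5 FPKM was 32.8% in the Ins2-Cre library and 38.6% in the flox/flox library. Of the other early endosome genes, Rab21, known from integrin uptake, had 17.8 FPKM in Ins2-Cre and 21.9 FPKM in flox/flox, and Rab20, a phagosome Rab, 3.35 FPKM in Ins2-Cre and 4.81 FPKM in flox/flox.

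Recycling Rab genes differed little. Rab11a, the main Rab of recycling endosomes, had 50.8 FPKM in the Ins2-Cre library and 58.7 FPKM in the flox/flox library (ratio 0.866, 0.814 to 0.921). Rab11b had 8.82 FPKM in Ins2-Cre and 9.21 FPKM in flox/flox, and Rab25, the epithelial member of this subfamily, 40.7 FPKM in Ins2-Cre and 34.6 FPKM in flox/flox (ratio 1.18, 1.05 to 1.31). Duct cell markers, the epithelial list, had a summed FPKM of 1082 in the Ins2-Cre library and 695 in the flox/flox library, and 2 of 9 measured genes were at least 2-fold higher (1.57% of all genes). Tff2 alone had 495 FPKM in Ins2-Cre and 38.4 FPKM in flox/flox, while 4 of the 9, Krt7 and Krt8 among them, had lower FPKM in Ins2-Cre. The part of duct cells in the Rab25 value was not tested. Rab4a and Rab4b, which act in fast recycling, had 12.0 and 39.9 FPKM in the Ins2-Cre library, against 11.6 and 39.9 FPKM in the flox/flox library, with intervals of the ratio from 0.873 to 1.21 and from 0.903 to 1.11. Rab14, which links the Golgi with endosomes, had 44.5 FPKM in Ins2-Cre and 60.8 FPKM in flox/flox, a relative difference of -0.08, and Rab35, known from recycling to the plasma membrane, 13.9 FPKM in Ins2-Cre and 18.9 FPKM in flox/flox. Rab29, a Rab of the trans-Golgi and lysosomes, had a ratio of 1.77 on only 40 Ins2-Cre and 26 flox/flox reads, with an interval of 1.06 to 3.03. Rab13, known from tight junctions, had 66 reads in the Ins2-Cre library and 92 in the flox/flox library.

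Golgi Rab genes lay near the median of all genes. FPKM was lower in the Ins2-Cre library for all 12 measured of 15, a direction shared by 8419 of all 10666 measured genes. Their median difference was -0.41, or -0.05 relative to all genes, with 8 of the 12 below that median and a relative range of -0.45 to 0.30. The group took 22.7% of Rab FPKM in the Ins2-Cre library and 23.6% in the flox/flox library. By reads Rab2a led the group, with 4536 in Ins2-Cre and 6860 in flox/flox, against 3369 and 4524 for Rab1a. Rab2a is listed with 15038 bases, so its FPKM and the share of the group depend on that length. In FPKM the group was led by Rab1a and Rab1b, which direct transport from the endoplasmic reticulum to the Golgi. Rab1a had 78.4 FPKM in the Ins2-Cre library and 91.3 FPKM in the flox/flox library (ratio 0.859, 0.821 to 0.898), and Rab1b 74.7 FPKM in Ins2-Cre and 81.7 FPKM in flox/flox (ratio 0.915, 0.863 to 0.969). Both lay above the median ratio of all genes with their intervals.

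Rab6a, which serves return transport through the Golgi, had 26.6 FPKM in the Ins2-Cre library and 35.7 FPKM in the flox/flox library, a relative difference of -0.05. Rab2a, which acts between the Golgi and the endoplasmic reticulum, had a ratio of 0.763 (0.734 to 0.792), a relative difference of -0.02. The lowest value belonged to Rab36, a Golgi Rab tied to the position of lysosomes, with 223 reads and 3.08 FPKM in the Ins2-Cre library, against 484 reads and 5.80 FPKM in the flox/flox library. Its ratio was 0.531 (0.451 to 0.624) and its relative difference -0.45. Rab43 had a ratio of 0.626 (0.553 to 0.708) and Rab33b, which binds the autophagy protein Atg16l1, 0.676 (0.605 to 0.753). These 3 intervals lay below the median ratio of all genes. Rab34, Rab39b, Rab19, Rab6b and Rab2b had relative differences between -0.15 and 0.30.

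The 7 measured of 9 Rab genes outside these groups had a median difference of -0.42, or -0.06 relative to all genes, and a relative range of only -0.08 to 0.23. Rab18, a Rab of the endoplasmic reticulum and lipid droplets, had 33.9 FPKM in the Ins2-Cre library and 39.0 FPKM in the flox/flox library. Rab12, which acts in the turnover of receptors by lysosomes, had 26.7 FPKM in Ins2-Cre and 36.3 FPKM in flox/flox, Rab28, known from cilia, 26.4 FPKM in Ins2-Cre and 35.9 FPKM in flox/flox, and Rab24, known from autophagy, 25.6 FPKM in Ins2-Cre and 35.1 FPKM in flox/flox. The ratios of these last 3 were 0.737, 0.737 and 0.730. Rab40c and Rab40b, which join a Rab fold to a ubiquitin ligase box, had 8.73 and 3.84 FPKM in the Ins2-Cre library, against 9.64 and 4.53 FPKM in the flox/flox library. Rab23, a brake on Hedgehog signalling, had 3.63 FPKM in Ins2-Cre and 5.04 FPKM in flox/flox.

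The 13 genes under the minimum were Rab3a, Rab3c, Rab27b, Rab7b, Rab15, Rab17, Rab32, Rab38, Rab30, Rab33a, Rab39, Rab42 and Rab44. They had 0 to 80 reads in the Ins2-Cre library and 0 to 171 reads in the flox/flox library. Rab38, a Rab of pigment granules, had 10 reads in the Ins2-Cre library and 26 in the flox/flox library, and Rab32, its relative, 31 in Ins2-Cre and 35 in flox/flox. For Rab44, 0 reads allow a level of up to 0.0479 FPKM in the Ins2-Cre library and 0.0415 FPKM in the flox/flox library, by the floor of 3 counts.

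Gene length moved with the difference inside the family as it did over all genes. Spearman's rho between listed length and difference was -0.37 across the 46 Rab genes, -0.36 without Rab31 and -0.55 across all measured genes; genes are not independent replicates, all share the same 2 libraries, and no p is given. The difference from genes of like length, which also leaves out the shift of all genes, was -1.61 for Rab31. It was 0.78 for Rab3b, 0.74 for Rab26 and 0.69 for Rab37 and Rab9b. For Rab27a and Rab3d it was -0.07 and -0.13. The alternative setting called length trend removed keeps the shift of all genes, and there Rab31 stood at -1.97. The listed lengths can depart from other annotations, and both FPKM and the difference from genes of like length depend on them. Rab22a is listed with 1922 bases, and its GENCODE transcript has 7155. Rab3b and Rab37 are listed with 3320 and 7149 bases, against GENCODE transcripts of 1078 and 2210, and Rab2a with 15038 against 2133. The differences from genes of like length were not recomputed with GENCODE lengths, so those of Rab3b and Rab37 are uncertain.

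**Figure D4:**
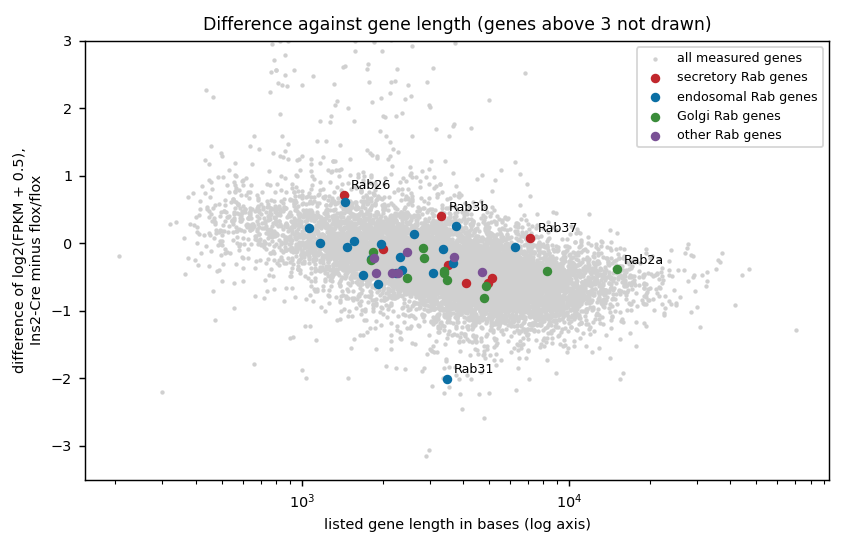
Difference of log2(FPKM + 0.5), Ins2-Cre minus flox/flox, against listed gene length in bases on a log axis, grey for all measured genes and coloured by role for Rab genes; genes above 3 are not drawn. Rab31 lies at the lower edge of the genes of its length, while Rab3b, Rab26 and Rab37 lie in the upper part of the cloud at theirs.

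All 59 Rab genes carry the annotations GTPase activity and GTP binding in the deposited table, and these annotations also sort the family by place. The 17 measured genes annotated to the Golgi membrane had a relative median of -0.04, and the 11 annotated to the recycling endosome 0.27. The 10 annotated to the early endosome, Rab31 among them, had 0.02, and the 15 annotated to the phagocytic vesicle, also with Rab31, -0.06. The genes lie on 18 chromosomes and have 2 to 14 exons in GENCODE, with a median of 6. Coding sequence lies in 1 exon in 2 of them, the measured genes Rab9 and Rab9b, with relative differences of 0.31 and 0.63. The 16 measured genes with 2 to 5 coding exons had a relative median of 0.06, as had the 28 with 6 or more. The coordinates of 6 Rab genes overlap another listed gene, each on the opposite strand. Rab37 shares 19159 bases with Cd300lf, which had 10 reads in the Ins2-Cre library and 4 in the flox/flox library, Rab6a 727 bases with Mrpl48 (812 Ins2-Cre and 877 flox/flox reads) and Rab2b 250 bases with Tox4 (846 Ins2-Cre and 1392 flox/flox reads). How the authors treated reads in such overlaps is not given, and without strand such reads cannot be assigned, so these values are uncertain.

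Genes that act on Rab proteins lay lower than the Rab genes themselves. Of 169 listed partner genes 145 were measured, with a median difference of -0.60 (-0.23 relative to all genes). At least 2-fold lower as deposited were 18 of 145 (12.4%), where 6.32% of all measured genes were, and 0 were at least 2-fold higher. Relative to all genes 2 were at least 2-fold lower, Sytl4 and Rims3 (1.38%, against 1.36% of all genes). Partner genes are long, with a median of 5433 bases against 2728 bases for the measured Rab genes. The median difference from genes of like length was -0.13 for the partner genes, against 0.00 for the Rab genes. By list this median was -0.0083 for prenylation and recycling, -0.17 for exchange factors and -0.14 for GTPase-activating proteins. For secretory, endosomal and Golgi effectors it was -0.066, 0.00045 and -0.22.

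Prenylation and recycling factors were nearest to the Rab genes, with a median difference of -0.24 over 14 measured genes. None (0) was past 2-fold as deposited, where 6.32% of all genes were lower and 1.57% higher. Rabac1, a Rab acceptor of the Golgi, had 320 FPKM in Ins2-Cre and 269 FPKM in flox/flox. Yipf2 and Yipf1, Golgi membrane proteins of the Yip family, had differences of -0.81 and 0.13.

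Of 39 measured exchange factor genes 4 were at least 2-fold lower (6.32% of all genes), and the list had a median of -0.60. Madd, the exchange factor for Rab3 and Rab27a, was the lowest on the log2(FPKM + 0.5) scale, with 1119 reads and 11.4 FPKM in the Ins2-Cre library, against 3334 reads and 29.6 FPKM in the flox/flox library (ratio 0.387, 0.361 to 0.414). Dennd4c, an exchange factor for Rab10, had 6.40 FPKM in Ins2-Cre and 14.5 FPKM in flox/flox. Trappc1 and Trappc4, of the complex that activates Rab1, had differences of 0.07 and 0.05. Of 35 measured GTPase-activating protein genes 6 were at least 2-fold lower (6.32% of all genes), and the list had a median of -0.65. The lowest at a mean FPKM of at least 5 were Tbc1d9 (ratio 0.446, 0.396 to 0.501) and Tbc1d14 (0.444, 0.392 to 0.501), and the highest were Tbc1d15, which acts on Rab7, and Tbc1d7, both at -0.31. Rab3gap1, a subunit of the enzyme complex that acts on Rab3, had 16.3 FPKM in the Ins2-Cre library and 34.3 FPKM in the flox/flox library.

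The list of secretory Rab effectors had a median of -0.69 over 13 measured genes. Of its genes 2, Sytl4 and Rims3, were at least 2-fold lower as deposited (6.32% of all genes) and relative to all genes (1.36%). Sytl4 encodes granuphilin, the partner of Rab27a, and had 20.2 FPKM in the Ins2-Cre library and 64.5 FPKM in the flox/flox library (ratio 0.314, 0.296 to 0.332). Rims3 is counted in this list although it encodes a short RIM protein without the Rab-binding part. It had 13.9 FPKM in Ins2-Cre and 38.7 FPKM in flox/flox. Exoc6 and Sytl1 had differences of -0.02 and -0.12. Endosomal effectors had a median of -0.55 over 27 genes with 3 at least 2-fold lower (6.32% of all genes). Plekhm2, a lysosome adaptor, had a difference of -1.23 and Vps39, a tether of late endosomes, -0.95. Appl2 and Rufy1 had -0.17 and -0.29. Golgi effectors had the lowest median of the 6 lists, -0.78 over 18 genes with 3 at least 2-fold lower (6.32% of all genes). Among them Golgb1, which encodes the Golgi tether giantin, had a ratio of 0.378 (0.351 to 0.406) and Optn, a Rab8 partner, 0.443 (0.369 to 0.529), and Gorasp2 and Gorasp1 had differences of -0.36 and -0.52.

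**Figure D5:**
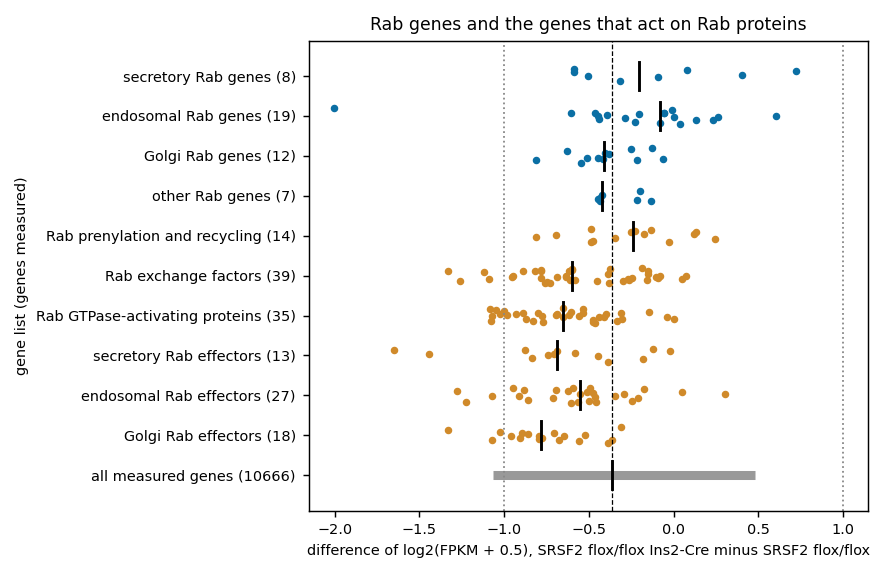
Difference of log2(FPKM + 0.5), Ins2-Cre minus flox/flox, for each measured gene of the 4 Rab groups (blue) and 6 partner lists (orange), with a black bar at each median; the grey bar spans the 5th to the 95th percentile of all measured genes. Partner lists other than prenylation and recycling have medians left of the dashed line, the median of all measured genes.

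Markers of the islet cells themselves differed between the libraries in both directions. The 15 beta cell markers, all measured, had a relative median of -0.41 and a relative range of -1.64 to 0.53. Of them 11 lay below the median of all genes and 4 above it. Their summed FPKM was 352398 in the Ins2-Cre library and 380819 in the flox/flox library. The 9 alpha cell markers had a relative median of 0.46, the 6 measured delta and PP cell markers 1.29, and the 12 measured macrophage markers 0.73. The 5 measured lymphocyte markers all passed 2-fold upward (1.57% of all genes). Over the 12 listed, their summed FPKM was 91.3 in the Ins2-Cre library and 35.5 in the flox/flox library. Endothelial and stromal markers had relative medians of -0.08 and 0.32. Among the defining markers, Ins2, Gcg, Sst and Pecam1 had reads in both libraries, and Sox9 and Cftr of duct cells had 19 and 7 reads in the Ins2-Cre library, against 3 and 1 in the flox/flox library.

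In the authors' deposited table, which compares the 2 libraries with DESeq, Rab31 had a log2 fold change of -1.73, a p-value of 0.0015 and an adjusted p-value of 0.228. In the authors' deposited table it was the 1 of 58 Rab genes with an unadjusted p-value under 0.05 (2.67% of all genes listed there), and 0 of 58 had an adjusted p-value under 0.05 (0.496% of all genes). With 1 library per genotype these p-values hold no measure of the spread between mice of a genotype, and how the spread was estimated is not given.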

How the data were processed

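RNA from islets was sequenced in 2 libraries, 1 per genotype. Raw read counts per gene were deposited as whole numbers, and FPKM values were deposited beside them, per the file headers; the FPKM values were recomputed from reads, listed length and library total. The authors' deposited comparison holds normalised counts as a signal (reads divided by size factors of 0.816 for Ins2-Cre and 1.23 for flox/flox), a fold ratio, its log2 value and a p-value. The submitters' processing notes name Bowtie2 2.4.2, DESeq and the builds mm10 and GRCm38, and the sources used here do not give the counter, strand setting or annotation release. Depth is in the report. The design had assumed FPKM alone. Without replicates no count model was fitted and no p-value was computed. The interval and trend scripts were tested on simulated data.

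Members came from the symbol rule. Role groups, partner lists and marker lists were set by hand with earlier results of these data known. Named were Rab genes past 2-fold, the 4 highest per role, the Rab3, Rab5, Rab11, Rab22a and Rab27 subfamilies, and from each partner list the 2 lowest and 2 highest at a mean FPKM of at least 5; Rab3gap1 and remaining Rab genes were named after their values were seen. A gene that this rule names is not reported here. Length trends were fitted by lowess (fraction 0.3). Coding sequences and exons came from GENCODE on GRCm38, with the longest coding transcript per gene, and all 59 genes matched by symbol. Python 3.11.15, pandas 2.3.3, scipy 1.17.1, statsmodels 0.14.6 and Biopython 1.88 were used.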

Additional observations from a re-analysis of the deposited data

How the results depend on the processing

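Rab31 was at least 2-fold lower under every alternative, and the count of such Rab genes stayed at 1 except with the 1.5-fold rule (6). The count of higher Rab genes, 0 as deposited, was 1 with median ratio scaling, 1 with the authors' normalised counts per length and 2 with the 1.5-fold rule. Relative to all genes it was 1 (Rab26), and became 2 (with Rab29) with a pseudocount of 0.1 FPKM or the total without the 20 highest genes. It was 0 with a pseudocount of 1 FPKM, no minimum, a mean FPKM of at least 5, or the length trend removed, and 5 with the 1.5-fold rule.

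Medians of all, secretory, endosomal and Golgi Rab genes moved with the scaling. They were 0.11, 0.19, 0.31 and -0.033 with median ratio scaling, 0.089, 0.17, 0.29 and -0.051 with the authors' normalised counts, -0.054, 0.020, 0.14 and -0.20 without the 20 highest genes, and -0.065, 0.0078, 0.13 and -0.21 without acinar marker reads. The endosomal median was -0.35 with the length trend removed, 0.020 relative to all genes. With no minimum the relative medians were -0.016 (all), -0.020 (secretory), 0.13 (endosomal) and -0.16 (Golgi). The relative results and their alternatives were added after seeing the data, and the causes were not tested. No paired analysis was possible because each genotype had 1 library, and for the same reason no library could be left out. At 40 Ins2-Cre and 26 flox/flox reads, Rab29 shows how depth limits low Rab genes.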

Other observations

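The 2 genes set aside from the symbol matches, Rab3ip and Rab5if, had relative differences of 0.21 and 0.44. The upper quartile of the measured Rab genes was 0.30. Rab3ip, which encodes Rabin8, an exchange factor for Rab8, had 457 reads and 6.67 FPKM in the Ins2-Cre library, against 592 reads and 7.50 FPKM in the flox/flox library (ratio 0.890, 95% counting interval 0.786 to 1.01). Rab5if had 508 reads and 32.0 FPKM in the Ins2-Cre library, against 555 reads and 30.3 FPKM in the flox/flox library (ratio 1.06, 0.934 to 1.19).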
